A study of Mus musculus with 2 samples.

Results

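The genes described here are the insulin and IGF (insulin-like growth factor) ligands, receptors, substrates and Akt kinases of brown fat cells before and after differentiation in culture. They are 9 genes, Igf1, Igf2, Insr, Igf1r, Igf2r, Irs1, Irs2, Akt1 and Akt2, chosen by symbol from the 23359 genes that carry values in the deposited expression table. All 9 were found, each in 1 row, and all 9 had a value above 0 in both libraries. RNA-Seq compared brown preadipocytes (D0) with brown adipocytes (D7), with 1 library for each stage.

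Cells of both stages were taken from newborn C57BL/6 mice (C57BL/6J in the methods of the study), from interscapular brown fat. According to the sample labels the cells were primary cultures, plated 4 days before induction in medium that already held insulin (0.1 μM) and T3 (1 nM). Adipogenesis was then induced at day 0 for 2 days with dexamethasone (2 μg/ml), indomethacin (0.125 mM) and IBMX (0.5 mM), and the cells returned to insulin and T3 until D7. The D0 cells were therefore, by the labels, not free of insulin. The methods of the study instead describe cells immortalized with large T and give another insulin dose, added from day 0, and another dexamethasone dose. They name pups of either sex, and whether cells of several pups were pooled is not given in the sources used here.

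Insulin and the IGFs act through a family of receptor tyrosine kinases. The insulin receptor (Insr) and the IGF1 receptor (Igf1r) phosphorylate insulin receptor substrates (Irs1, Irs2), which recruit PI3K, and the lipid that PI3K makes brings Akt to the membrane. Igf2r, also the cation-independent mannose 6-phosphate receptor, has no kinase and carries IGF2 and lysosomal enzymes into the cell. In adipocytes the Akt arm drives glucose uptake through GLUT4 and lipid synthesis, and it restrains lipolysis.

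The unit of the table is FPKM, fragments per kb of transcript, scaled to the size of the library. Levels of different genes can thus be set side by side as far as the transcript lengths used hold. The ratio of D7 to D0 was taken without a pseudocount, and a gene was called higher or lower at 2.0-fold. With 1 library per stage no test was possible and the ratios have no replicate check. The intervals given are exact 95% intervals from the approximate number of fragments behind each value. They cover counting error alone and compare these 2 libraries, not the stages. The recovered denominators were 21471460 fragments at D0 and 18266319 at D7.

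The stage labels were checked against marker genes. All 8 adipocyte markers were higher at D7, by 31.5-fold to 5848-fold. The highest ratio, that of Plin1, rests on about 2 fragments at D0 and has an interval of 1672 to 49900. Of 7 brown adipocyte markers Ucp1, Cidea, Elovl3 and Cox8b were listed at 0 at D0 and above 0 at D7. Ppargc1a and Dio2 passed 2.0-fold, and Prdm16, a regulator of brown fat identity, did not, at 0.835 and 1.02, a ratio of 1.22 (0.965 to 1.53). Of 8 markers of preadipocytes and fibroblasts, 5 were lower and 1, Cd34, was higher. Some markers of other cells also had values above 0. The summed FPKM of 12 macrophage markers was 156 at D0 and 585 at D7, and that of 8 skeletal muscle markers was 51.2 and 4.81. The muscle sum lay almost all in Acta1 (45.4 and 1.73) and Des (5.74 and 3.03), with Myf5, Myod1, Pax7 and Ckm at 0 in both. Endothelial markers summed to 1.62 and 2.69. Among them Tie1 was at 0 in both, Pecam1 had about 1 fragment in each library and Cdh5 about 13 and 2. The muscle and endothelial sums therefore do not establish that such cells were there. All 12 macrophage markers were above 0 in both libraries, and whether their sum measures such cells was not tested. In a culture measured in bulk, fewer cells of a type and less RNA per cell cannot be told apart.

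The bases just before the transcription start are shown for Irs2, Akt2 and Igf2r, which passed 2.0-fold, and for Irs1 and Akt1, since later results compare Irs2 with Irs1 and Akt2 with Akt1. Those of Igf1 are not shown because other annotated Igf1 transcripts carry them in their 5′ UTR. Promoter windows were taken from RefSeq (GRCm38.p6), which held 15 windows for 8 of the 9 members and none for Insr. Each line gives the 100 bases before 1 annotated start, 5′ to 3′ on the strand of the gene, and capitals mark the motifs CACGTG, an E-box, and TGTTTTG, an element known from insulin-responsive promoters. TGTTTAC, a forkhead motif, was searched as well. Akt1, Akt2 and Igf2 have further annotated starts that are not printed. The printed Akt1 stretch lies downstream of another annotated Akt1 start, and so within the annotated gene.
Irs2, chr8:11008930-11009029, minus strand: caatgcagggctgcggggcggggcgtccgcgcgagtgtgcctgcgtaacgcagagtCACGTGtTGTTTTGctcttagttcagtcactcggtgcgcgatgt
Irs1, chr1:82291440-82291539, minus strand: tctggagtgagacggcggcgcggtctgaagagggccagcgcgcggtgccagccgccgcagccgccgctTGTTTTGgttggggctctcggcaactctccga
Igf2r, chr17:12769707-12769806, minus strand: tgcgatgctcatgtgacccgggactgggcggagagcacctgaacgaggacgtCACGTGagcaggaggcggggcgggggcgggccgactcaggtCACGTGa
Akt2, chr7:27591452-27591551, plus strand: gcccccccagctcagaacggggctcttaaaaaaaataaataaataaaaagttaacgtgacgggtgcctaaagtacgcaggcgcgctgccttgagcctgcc
Akt1, chr12:112674277-112674376, minus strand: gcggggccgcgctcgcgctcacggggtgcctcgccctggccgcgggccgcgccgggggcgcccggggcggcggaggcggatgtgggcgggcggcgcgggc

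In Irs2 the E-box begins 44 bases before the start and TGTTTTG begins 37 bases before it, with 1 base between them. In Irs1 TGTTTTG begins 32 bases before the start, and a second copy (111 bases) and an E-box (115 bases) lie upstream of the printed stretch. Both substrate genes thus hold both motifs, and what the motifs do in these cells was not tested. In Igf2r E-boxes begin 48 and 7 bases before the start. TGTTTAC was found in 1 of the 15 windows, at another Akt1 start, 161 bases before it. Searched on both strands over all 32851 windows of 250 bases before to 50 after a start, CACGTG was in 7.15%, TGTTTTG in 6.28% and TGTTTAC in 3.65%. CACGTG and TGTTTTG were chosen after the windows had been seen, and a match in letters is not a measured binding site.

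The windows also differed in base composition. The Irs2, Irs1, Igf2r and printed Akt1 windows were 72.0%, 71.3%, 70.7% and 79.7% G and C, with 41, 28, 34 and 42 CpG, whereas the Igf1 window had 52.3% and 6 CpG and the printed Akt2 window 50% and 12 CpG. The median of all windows was 52.7% and 7 CpG. The Igf1r window, not printed, was 76.0% G and C with 48 CpG.

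Of the 9 genes, the D7 library had more Igf1, Insr, Irs2 and Akt2 and less Igf2r, each by 2.0-fold or more. The other 4, Igf2, Igf1r, Irs1 and Akt1, differed by less. Across the table, 18.5% of the 14984 genes above 0 in both libraries were higher and 13.2% lower, that is 2765 and 1980 genes. With values floored at 0.01 and divided by the library median, 2000 of these genes were higher and 3247 lower. Among the 11966 of them with FPKM of at least 1 in at least 1 library, as is the case for all 9 members, 15.6% were higher and 12.0% lower. The members' shares were 44.4% higher (4 of 9) and 11.1% lower (1 of 9). The median log2 ratio of the members was 0.41, that of Irs1, beside 0.015 over all genes above 0 in both libraries. The summed FPKM of the 9 genes went from 628 to 484, since the most abundant members, Igf2, Akt1 and Igf2r, had ratios below 1.

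**Figure D1:**
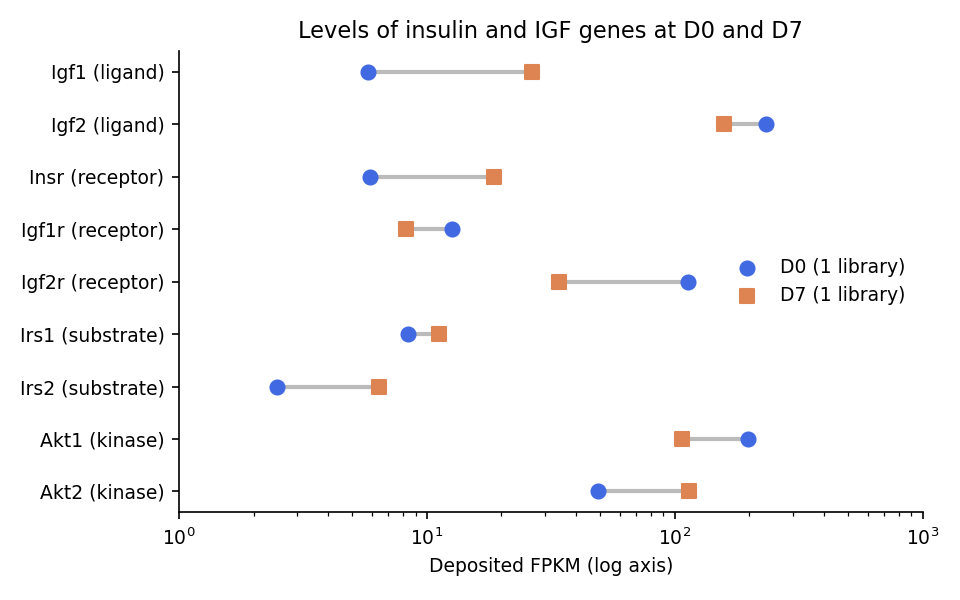
Deposited FPKM (log axis) of the 9 genes at D0 (circles) and D7 (squares), 1 library each, with a grey line joining the 2 values of a gene. Igf2 was highest in both libraries (234 and 158) and Irs2 lowest (2.49 and 6.43).

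At D0 the order of levels from high to low was Igf2, Akt1, Igf2r, Akt2, Igf1r, Irs1, Insr, Igf1 and Irs2. Insr and Igf1 could not be ordered at D0, since their FPKM ratio of 1.02 had a counting interval of 0.875 to 1.20, and every other neighbouring pair was separated beyond counting error. At D7 the order was Igf2, Akt2, Akt1, Igf2r, Igf1, Insr, Irs1, Igf1r and Irs2, and all neighbours were separated beyond counting error. The closest were Akt2 and Akt1, at a ratio of 1.07 (1.04 to 1.11). The spread between cultures is not known, so these orders are those of the 2 libraries. They also rest on the transcript length behind each value. Annotated coding transcripts run from 736 to 2690 bp for Akt1, 417 to 4544 bp for Akt2 and 510 to 7052 bp for Igf1. The intervals do not cover an error in length, which could reverse close pairs such as Akt2 and Akt1. Igf1, Akt2 and Insr stood higher in the order at D7 than at D0, Igf1r, Igf2r, Akt1 and Irs1 stood lower, and Igf2 and Irs2 kept their places.

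**Figure D2:**
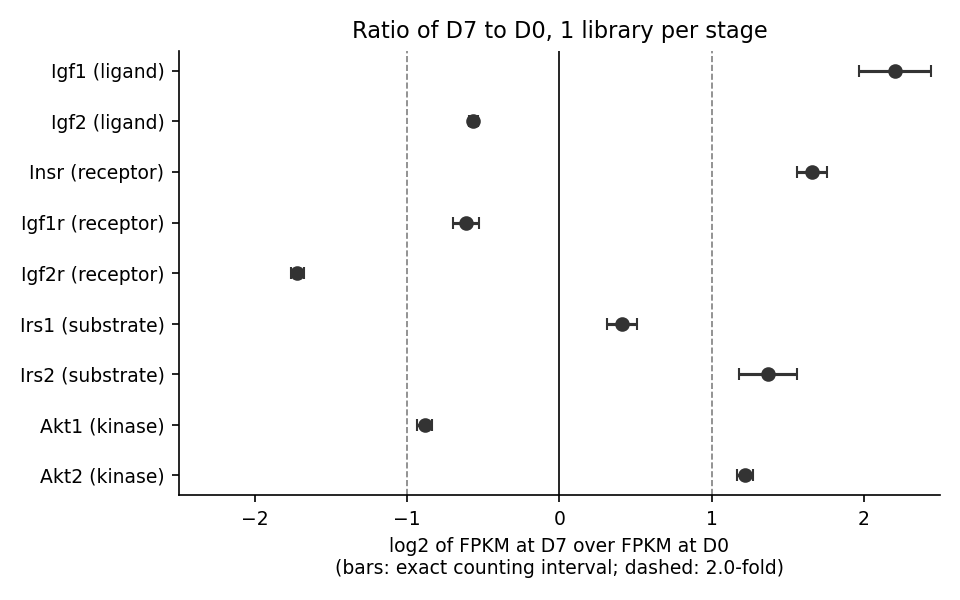
Log2 ratio of FPKM at D7 to D0 for each of the 9 genes, with exact 95% counting intervals as bars and 2.0-fold as dashed lines. Igf1, Insr, Irs2 and Akt2 lie to the right of 2.0-fold, Igf2r to the left, and Igf2, Igf1r, Irs1 and Akt1 between the lines.

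Among the ligands, Igf1 was low at D0 and Igf2 was abundant in both libraries. Igf1 (chromosome 10, 87858265 to 87937042, plus strand; coordinates of genes are those of GENCODE M21 on GRCm38, the mm10 assembly) encodes a growth factor made by liver and by many tissues locally. Its FPKM was 5.76 at D0 and 26.5 at D7. The ratio was 4.60 (3.91 to 5.44), the highest of the 9 members, at the 93.0th percentile of all ratios. The interval rests on about 185 and 723 fragments over a transcript of 1673 bp. Annotated coding transcripts of Igf1 run from 510 to 7052 bp, and with the longest one the interval was 4.27 to 4.97. Whether the transcript in use differed between the stages was not tested.

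Igf1 is also a gene of macrophages, and macrophage markers are set beside it here. All 12 markers in the table had ratios above 1, from 1.06 for Cd14, a receptor for lipopolysaccharide, to 35.8 for Mrc1, the mannose receptor, and 11 passed 2.0-fold. None of the 12 was at 0 in either library. Csf1r, the receptor for macrophage colony-stimulating factor, was at 2.63 and 10.4, and C1qa, a complement subunit, at 9.44 and 72.9. Their summed level was 3.76-fold higher at D7, a sum led by Lyz2, lysozyme, at 111 and 286. Without Lyz2, left out after the values were seen, it was 6.69-fold higher. All 8 adipocyte markers were higher at D7 as well, by 31.5-fold or more. The part of macrophages or of adipocytes in the Igf1 value was not tested.

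**Figure D3:**
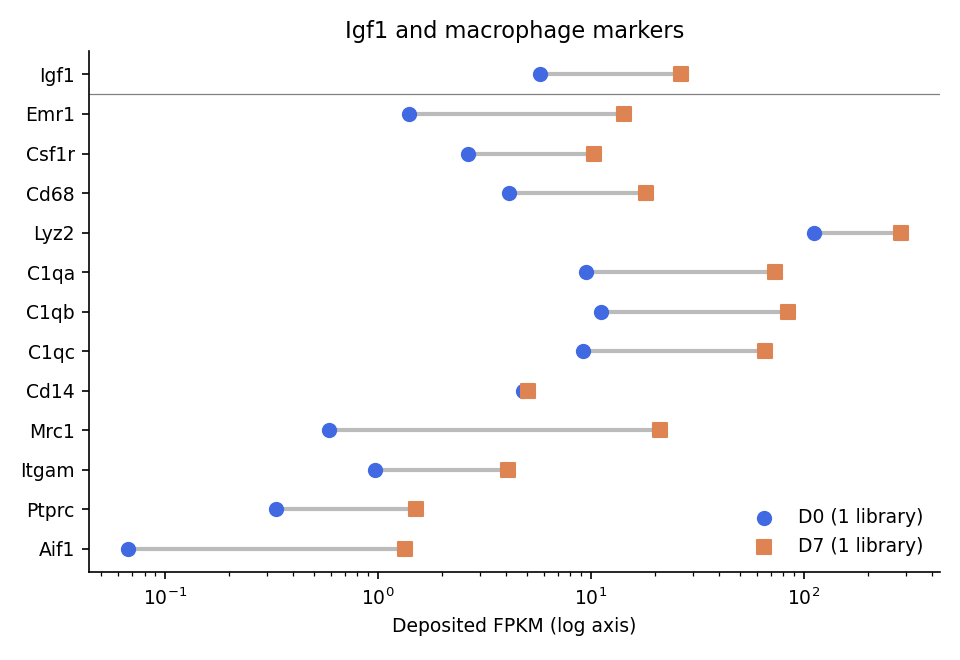
Deposited FPKM (log axis) of Igf1 and of 12 macrophage markers at D0 (circles) and D7 (squares), 1 library each. Of the 12 markers 11 passed 2.0-fold and Cd14, at 1.06, did not. The ratio of Igf1, 4.60, lies within their wide range of 1.06 to 35.8, as do those of Insr, Irs1, Irs2 and Akt2.

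Igf2 (chromosome 7, 142650766 to 142666816, minus strand) encodes the growth factor of fetal life and is an imprinted gene expressed from the paternal copy. Its FPKM was 234 at D0 and 158 at D7, which placed it at ranks 319 and 534 of 23359 genes. The ratio was 0.675 (0.661 to 0.690), so it was lower at D7 by less than 2.0-fold. Igf2 was thus the ligand with the most transcript per length in both libraries, at 97.6% and 85.6% of the summed IGF ligand FPKM. Igf2 is also strongly expressed in developing muscle. Of the 8 muscle markers 3 were above 0 in both libraries, all with ratios below 1 (Myh3 from about 2 and 1 fragments). Of these 3, 1 was lower at D7 by 2.0-fold, or 33.3%, beside 13.2% over all genes. This was Acta1, skeletal actin, at 45.4 and 1.73. Des, the gene of desmin, was at 5.74 and 3.03, under 2.0-fold, while the myogenic factors Myf5, Myod1 and Pax7 were at 0 in both libraries and Myog at 0 and about 1 fragment. Their part in the Igf2 value was not tested.

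Igf2 shares its annotated locus with Mir483, listed at 0 in both libraries, with Gm49394 on the same strand and with an antisense gene. The antisense row of the table, Igf2as, was at 0.142 and 0.0476, far below Igf2. The insulin genes Ins1 and Ins2, which encode the pancreatic hormone, were listed at 0 in both libraries. A count of 0 allowed an FPKM of up to 0.158 and 0.187 for Ins1 and 0.375 and 0.444 for Ins2, at D0 and D7.

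Among the receptors, Insr was higher at D7 while Igf1r and Igf2r had ratios below 1. Insr (chromosome 8, 3122061 to 3279617, minus strand) was at 5.90 at D0 and 18.6 at D7, from about 1162 and 3120 fragments. The ratio was 3.16 (2.95 to 3.38), at the 89.4th percentile of all ratios. Igf1r (chromosome 7, 67952827 to 68233668, plus strand), its close relative, was at 12.6 and 8.24. Its ratio of 0.654 (0.616 to 0.694) did not reach 2.0-fold. Insrr, the orphan receptor of the family, was listed at 0 in both libraries, which allowed up to 0.0284 and 0.0334.

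Igf2r (chromosome 17, 12682406 to 12769664, minus strand) was the only member lower by 2.0-fold. Its FPKM was 113 at D0 and 34.2 at D7, and the ratio was 0.303 (0.294 to 0.312), or 3.30-fold lower, at the 5.37th percentile of all ratios. It clears IGF2 from outside the cell, so it is set beside its ligand here. In FPKM, Igf2r stood at 0.482 of Igf2 at D0 and at 0.216 at D7, a change of 0.449 (0.432 to 0.466). Put the other way, there was 2.07 times as much Igf2 as Igf2r transcript per length at D0 and 4.62 times as much at D7.

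The locus that the table gives for Igf2r runs on to 12868143 and spans Airn, the antisense RNA that silences the paternal Igf2r copy in many tissues, and Mas1. Airn was at 3.88 and 4.50, with a ratio of 1.16 (0.865 to 1.54), which the count does not separate from 1. Airn thus stood at 3.44% of the Igf2r value at D0 and 13.2% later. The libraries were made with a kit that marks strand, but whether the counting used it is not given in the sources used here, so values of overlapping antisense genes are uncertain. Igf1, Igf2, Insr, Irs1 and Irs2 also overlap an annotated gene on the other strand.

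The 2 substrate genes both had ratios above 1, and Irs2 alone passed 2.0-fold. Irs1 (chromosome 1, 82233101 to 82291416, minus strand) was at 8.37 before and 11.1 after differentiation. Its ratio was 1.33 (1.25 to 1.43). Irs2 (chromosome 8, 10984681 to 11008458, minus strand) was the least abundant member in both libraries, at 2.49 and 6.43. The ratio of Irs2 was 2.58 (2.26 to 2.95), from about 329 and 722 fragments. An antisense gene within its deposited locus, 9530052E02Rik, was at 0.120 and 0.355. Irs1 stayed above Irs2 at both stages.

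The 2 Akt kinases moved in opposite directions. Akt1 (chromosome 12, 112653821 to 112674884, minus strand), the broadly expressed form linked to growth, was at 197 at D0 and 107 at D7. Its ratio was 0.541 (0.523 to 0.560), or 1.85-fold lower, which is short of 2.0-fold. Akt2 (chromosome 7, 27591552 to 27640826, plus strand), the form linked to insulin-stimulated glucose uptake, was at 49.1 and 114. Its ratio was 2.33 (2.25 to 2.41).

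The calls of both Akt genes depend on how the libraries are scaled. With values floored at 0.01 and divided by the median of each library, every ratio shifted by -0.35 on the log2 scale. Akt2 then stood at 1.82, under 2.0-fold, and Akt1 at 0.424, past it. Counts over all genes under that scaling were nearly those that the study reports. The direction of each Akt gene was the same under every scaling tried. The other 7 members kept their calls under that scaling.

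Ratios between related genes within a library do not depend on scaling between libraries, so the balance of each pair was compared. Insr stood at 0.468 of Igf1r at D0 (0.437 to 0.501) and at 2.26 times Igf1r at D7 (2.13 to 2.40). The change was 4.83-fold (4.41 to 5.29), and the share of Insr in their summed FPKM went from 31.9% to 69.3%. The more abundant of these receptors was thus Igf1r in the D0 library and Insr in the D7 library. Their sum, whose change does depend on scaling between libraries, was 18.5 and 26.9.

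Akt2 stood at 0.249 of Akt1 at D0 (0.241 to 0.258) and at 1.07 at D7 (1.04 to 1.11), a change of 4.30-fold (4.10 to 4.52). Whether Akt2 lay above Akt1 at D7 depends on the transcript lengths used. Akt1 and Akt2 summed to 246 before and 221 after differentiation, a ratio of 0.898. Unlike the balance of the pair, this ratio of sums depends on scaling between libraries. It shifts by -0.35 on the log2 scale with the library median scaling. As a share of the sum, Akt1 went from 80.0% to 48.2% and Akt2 from 20.0% to 51.8%.

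Irs2 stood at 0.298 of Irs1 at D0 (0.264 to 0.336) and at 0.577 at D7 (0.529 to 0.630), a change of 1.94-fold (1.67 to 2.25). This was the smallest of the changes between paired genes, and its interval includes 2.0-fold. Irs3, a substrate gene of rodents found in adipocytes, was at 0.237 and 3.43, a ratio of 14.4 (7.82 to 29.6) from about 11 and 135 fragments. Of the summed FPKM of the Irs genes, Irs1 held 75.4% at D0 and 53.0% at D7, Irs2 22.4% and 30.6%, and Irs3 2.14% and 16.3%. Irs4 had about 1 fragment in the D7 library and was listed at 0 in the other. Igf1 to Igf2 went from 0.0246 to 0.168, a change of 6.82-fold (5.78 to 8.07), with Igf2 the more abundant at both stages.

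**Figure D4:**
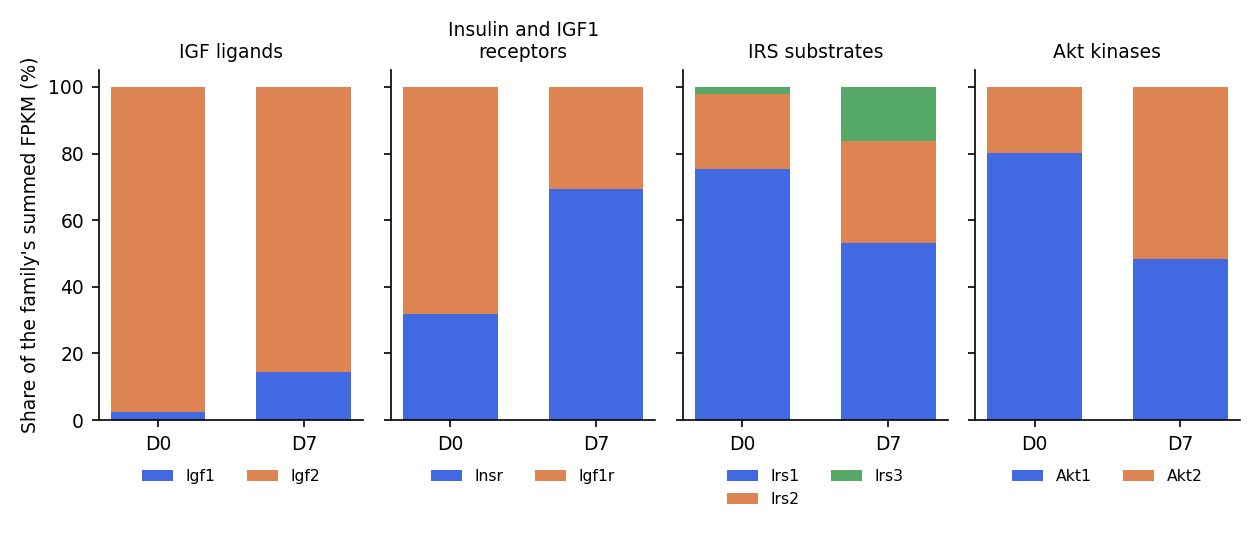
Share of each gene (%) in the summed FPKM of its family at D0 and D7, 1 library each, for the IGF ligands, the insulin and IGF1 receptors, the Irs substrates and the Akt kinases. Insr went from 31.9% to 69.3% of its pair and Akt2 from 20.0% to 51.8% of its pair, and Irs4, under 0.1% in both libraries, is not drawn.

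The other genes of the pathway were taken from 7 lists of 72 genes by role, and 66 were above 0 in both libraries. Of these 66, 14 were higher at D7 (21.2%) and 10 lower (15.2%), near the shares of 18.5% and 13.2% over all genes. Their median log2 ratio was 0.18, and -0.17 with the library median scaling, beside 0.015 and -0.34 over all genes. Higher calls lay most often in the list of Akt targets and lower calls in that of negative regulators. The lists were chosen with earlier results of these data known, and none was tested against other genes.

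IGFs outside the cell are held by binding proteins, and 3 of 9 measured genes of this list were higher and 1 lower. Those shares were 33.3% and 11.1%, beside 18.5% and 13.2% over all genes. Igfbp3, the main carrier in serum, was at 109 and 1211, a ratio of 11.1 (10.8 to 11.5), which made it the highest of its list at D7. Igfbp6, which prefers IGF2, was at 60.5 and 233, a ratio of 3.85. Igfals, the partner of IGFBP3 in serum complexes, was at 0.0241 and 1.31, and its ratio of 54.2 has an interval of 11.8 to 2742, since about 1 fragment stands behind the D0 value. Pappa, a protease that cuts IGFBP4 and releases IGF, was lower, at 52.0 and 24.1. Igfbp7, the highest at D0, was at 1143 and 944, and Igfbp1 was listed at 0 in both, which allowed up to 0.104 and 0.122. The median log2 ratio of the list was 0.04, and -0.31 with the library median scaling.

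Among 13 other substrates and adaptors above 0 in both libraries, Irs3 (above) and Sh2b2 were higher and Dok1 was lower. That was 15.4% higher and 7.69% lower, beside 18.5% and 13.2% over all genes. Sh2b2, or APS, an adaptor that binds the active insulin receptor, was at 2.06 and 29.5, a ratio of 14.3 (11.9 to 17.4). Dok1, a docking protein that dampens Ras signalling, was at 39.2 and 12.5. Shc1, the adaptor to the Ras arm, was the highest of the list at 95.0 and 75.4. The list's median log2 ratio was 0.21, and -0.14 with the library median scaling.

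The PI3K genes differed by subunit, with 2 of 7 higher (28.6%) and 1 lower (14.3%), beside 18.5% and 13.2% over all genes. Pik3r1, the gene of the main regulatory subunit p85α, was at 11.2 and 68.9, a ratio of 6.15 (5.83 to 6.48), and became the highest of the list. Pik3r2, another regulatory subunit and the highest at D0, was at 31.4 and 26.2, and Pik3r3 was lower, at 9.69 and 4.17. Regulatory subunit genes thus went in opposite directions. The catalytic subunit gene Pik3cb was at 1.81 and 4.02, a ratio of 2.22 (1.90 to 2.60), whose interval includes 2.0 and which was 1.74 with the library median scaling. The median log2 ratio of the list was 0.50, and 0.15 with that scaling.

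Genes of the mTOR complexes and their regulators mostly differed by less than 2.0-fold, with 1 of 12 higher (8.33%) and 0 lower. Over all genes the shares were 18.5% and 13.2%. The higher gene was Deptor, which binds and inhibits mTOR, at 1.14 and 23.5, a ratio of 20.7 (18.0 to 23.9). Mtor itself was at 7.76 and 15.0, a ratio of 1.93 (1.80 to 2.06). Eif4ebp1, the translation repressor that mTOR complex 1 phosphorylates, was the highest of the list at 162 and 321, and its ratio of 1.98 passed 2.0-fold when ratios were centred on their median (2.04) or trimmed mean (2.03). The median log2 ratio of the list was 0.10, and -0.25 with the library median scaling.

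Of 12 negative regulators none was higher and 5 were lower (41.7%), and 9 had ratios below 1. Over all genes 18.5% were higher and 13.2% lower. Socs1 and Socs3, suppressors of cytokine signalling that also bind the insulin receptor or its substrates, were at 5.82 and 1.22 and at 26.3 and 7.17, ratios of 0.209 and 0.273. Enpp1, a membrane inhibitor of the insulin receptor, was at 2.51 and 0.486, a ratio of 0.194. Grb14, an adaptor that blocks the receptor kinase, was at 29.1 and 14.2, a ratio of 0.489 (0.438 to 0.545). Phlpp1, a phosphatase of Akt, was at 7.39 and 3.57, a ratio of 0.483 (0.429 to 0.544). The intervals of these last 2 include 0.5, and Grb14 was at 0.505 with median centring. The related adaptor Grb10 was the highest of the list, at 147 and 86.4, a ratio of 0.587. The list's median log2 ratio was -0.78, and -1.14 with the library median scaling, and neither was tested against other genes.

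Of 13 measured Akt targets and genes of glucose use, 6 were higher (46.2%) and 2 lower (15.4%), beside 18.5% and 13.2% over all genes. Slc2a4, the gene of GLUT4, was at 0.722 and 154, a ratio of 213 (155 to 307) from about 36 and 6578 fragments, while Slc2a1, the gene of the basal transporter GLUT1, was at 50.4 and 24.5, a ratio of 0.485 (0.456 to 0.517). Tbc1d4, or AS160, the Akt substrate that holds GLUT4 inside the cell, was at 0.288 and 12.3, a ratio of 42.6, while its relative Tbc1d1 was at 14.3 and 5.83, a ratio of 0.408. In both pairs, as for the Akt genes, 1 relative was higher at D7 and the other had a ratio below 1. This did not hold for all relatives, since Irs1 and Irs2 both had ratios above 1. Slc2a1 was at 0.501 with median centring.

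Pde3b, the phosphodiesterase through which insulin lowers cAMP in adipocytes, was at 8.33 and 59.2, a ratio of 7.10. Acly, an Akt substrate that makes acetyl-CoA for lipid synthesis, was the highest of the list at both stages, at 121 and 1644, a ratio of 13.6. Hk2, which traps glucose as its phosphate, was at 8.59 and 29.8. Foxo1, a transcription factor that Akt keeps out of the nucleus, was at 1.97 and 9.99, a ratio of 5.08 (4.53 to 5.72). Foxo6 was listed at 0 at D0 and at 0.350 at D7, at least 6.10-fold higher against a limit of 3 fragments. The median log2 ratio of the list was 0.88, and 0.53 with the library median scaling. Adipocyte markers moved in the same direction as these genes, and their part was not tested.

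**Figure D5:**
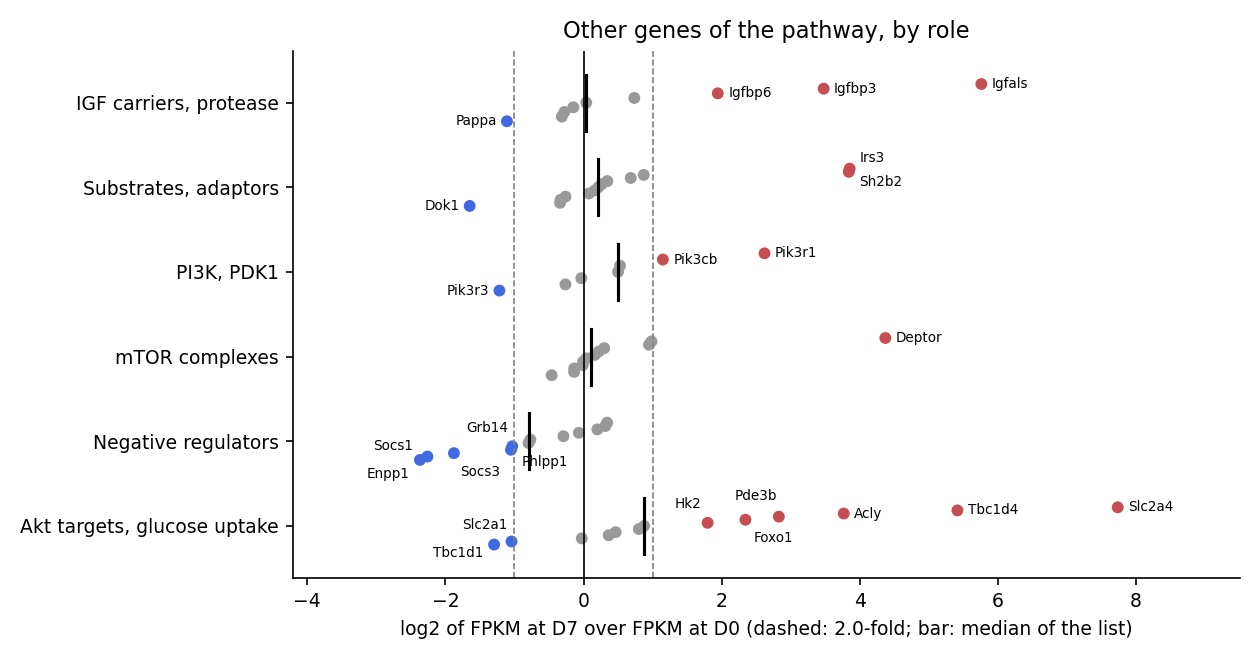
Log2 ratio of FPKM at D7 to D0 for the 66 other pathway genes above 0 in both libraries, by role, 1 library per stage, with dashed lines at 2.0-fold, a black bar at the median of each list and names at genes past 2.0-fold. No negative regulator lies to the right of 2.0-fold and 5 lie to the left, while 6 Akt targets lie to the right and 2 to the left. Over all genes above 0 in both libraries 18.5% were higher and 13.2% lower.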

How the data were processed

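The authors filtered the reads, removed duplicates and rRNA reads, aligned the rest to mm10 and gene sequences (SOAP2 in the study's methods, Bowtie2 in the submitters' processing notes) and deposited an FPKM value for each gene in each library. The tool that computed FPKM, and whether it used strand, are not given in the sources used here. Of 27324 rows, 3963 held no value, and 2 symbols that filled 4 rows were counted once each. No column was left unmatched.

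Ratios of D7 to D0 were called at 2.0-fold among genes above 0 in both libraries. Fragment numbers were recovered from FPKM. In 602 single-exon genes the length came from the deposited locus. The denominator and length correction were those that brought their low values (up to 20 fragments) nearest to whole numbers. By that fit every such value came out whole (tolerance 0.1), of 79 in the D0 and 89 in the D7 library. For spliced genes with 1 transcript, which were not in the fit, 70.9% and 69.6% did, so other fragment numbers are approximate. Intervals of a ratio are exact Clopper-Pearson intervals, and those of a change in balance are exact conditional intervals of the odds ratio, both at 95%. A value listed at 0 was given a limit of 3 fragments.

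Members and lists were chosen with earlier results of these data known. Named from each pathway list were genes past 2.0-fold with FPKM of at least 1 in at least 1 library, genes listed at 0 and the highest gene of each library. Mtor was added after its values were seen, and 2 genes of the lists are not reported here. Likeness of patterns was not ranked, since there are 2 libraries. The alternatives were pseudocounts of 0.1 and 1, TPM, 4 other scalings, summed rows, a 1.5-fold threshold and a filter at FPKM of 1. The scripts were tested on simulated data. Analyses ran in Python 3.11.15 with scipy 1.17.1 for intervals, pandas 2.3.3 and numpy 2.4.6 for tables and matplotlib 3.10.9 for plots.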

Additional observations from a re-analysis of the deposited data

How the results depend on the processing

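No paired analysis was possible because each stage has 1 library, and leaving out a library leaves no comparison. Igf1, Insr and Irs2 were past 2.0-fold higher, and Igf2r past 2.0-fold lower, under all 8 alternatives that rescale or change the values, and Akt2 in 7 of them. No member changed direction. With values floored at 0.01 and divided by the library median, a shift of -0.35 (log2), 2 members were lower instead of 1, the median log2 ratio of the members was 0.061 and in all 2835 genes were higher and 3832 lower instead of 2765 and 1980. That setting also brings in genes listed at 0 in a library. Among genes above 0 in both, an alternative added after seeing the data, it gave 2000 higher and 3247 lower. At a threshold of 1.5-fold 3 members and 3538 genes were lower. With a pseudocount of 1 the change of Insr to Igf1r was 4.19 and that of Irs2 to Irs1 was 1.64, since both pairs hold low values. Over these alternatives the ratio of Akt2 ranged from 1.82 to 2.41, of Akt1 from 0.424 to 0.559 and of Irs2 from 2.02 to 2.67. With 1 culture per stage, the depth limits the counting error and says nothing of the spread between cultures.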

Other observations

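Genes tied to Igf2 and Igf2r that are in none of the lists were looked at after their values had been seen, and no explanation is given for them. H19, the imprinted noncoding RNA that shares enhancers with Igf2 and is expressed from the other parental copy, had FPKM of 1267 and 691 in the D0 and D7 libraries. The ratio of D7 to D0 was 0.546 (counting interval 0.538 to 0.554), beside 0.675 for Igf2, so both neighbours were lower at D7, H19 by the larger fold. M6pr, the other mannose 6-phosphate receptor, which does not bind IGF2, was at 88.3 and 51.9, a ratio of 0.588 (0.558 to 0.618), beside 0.303 for Igf2r.

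The genes of the IGF2 mRNA-binding proteins, which are best known from fetal tissue, all had ratios below 1. Igf2bp1 was at 3.92 and 1.75, a ratio of 0.447 (0.386 to 0.515). Igf2bp3 was at 14.0 and 8.73, a ratio of 0.623 (0.567 to 0.685). Igf2bp2, the most abundant of them, was at 23.6 and 20.8, a ratio of 0.881 (0.821 to 0.944). None has a replicate check.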
